A study of Saccharomyces cerevisiae with 24 samples.

Results

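The cytosolic ribosomal protein genes of budding yeast encode the proteins of the large (60S) and small (40S) ribosomal subunits. They were chosen by name, as the genes whose symbols begin with RPL or RPS followed by a number and, where present, a copy letter A or B, together with the 5 stalk proteins RPP0, RPP1A, RPP1B, RPP2A and RPP2B. The rule found 137 of the 7126 genes in the count table, 81 of the large subunit with the stalk and 56 of the small subunit, and it used no measured value. All 137 had enough counts to be tested, among 6089 genes tested. They form 59 pairs of A and B copies, 35 of the large and 24 of the small subunit, and 19 single-copy genes.

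PolyA RNA was sequenced in 24 libraries, 3 in each of 8 groups, from 2 haploid strains of the BY4741 background. The crz1 cnb1 strain carried crz1delta::LEU2 and cnb1delta::KanMx, and the crz1 strain carried crz1delta::LEU2 alone. Both were MATa his3delta1 ura3delta0 leu2delta0 lys2delta0 and held a HYG-TEFp-GFP(Y66F) insertion on chromosome VI. Crz1 is the transcription factor activated by calcineurin, and Cnb1 is calcineurin's regulatory subunit; calcineurin is itself a calcium-dependent phosphatase. Samples of each strain came from untreated cultures (0 h) and from cultures grown for 12, 48 or 72 h with 200 mM CaCl2, in synthetic medium with ammonium chloride as nitrogen source and with dilution every 12 h. The comparison of strains asks which responses to calcium stress need calcineurin when Crz1 is absent. No wild type and no untreated library at a later time was analysed here, so CaCl2 and time in culture cannot be told apart. The labels do not say that libraries of a group came from separate cultures, so the p-values measure the spread between these libraries, which may be technical.

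Ribosomal protein genes are among the most highly transcribed genes of growing yeast and are regulated together by nutrient signals, through the TOR and protein kinase A pathways and a promoter complex of Rap1, Fhl1 and Ifh1. A duplication of the whole genome left most of them in pairs whose proteins are nearly identical, while the promoters, introns and noncoding sequence have diverged more. Many of them carry an intron, which is uncommon among yeast genes.

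Total counts lay between 21582317 and 22016465 per library. CRZ1 had 0 to 4 counts in every library, and CNB1 had 3 to 22 counts in crz1 cnb1 libraries, against 1581 to 3043 in crz1 libraries. Markers of a cells summed to 969 to 4955 CPM (counts scaled to library size), those of alpha cells to 21.9 to 42.9 CPM and those of sporulating cells to 26.6 to 77.3 CPM. The a-cell markers were higher at 0 h than at any later time in both strains, and the part of this in the results below was not tested. In the crz1 group at 48 h, replicate 1 stood apart from the other 2 libraries. Its ribosomal protein genes held 15.9% of all counts, against 24.4% and 22.6% in replicates 2 and 3. Tests that use this group are given with and without that library. Replicate 1 at 0 h also lay apart on the first principal component, the axis of widest spread between libraries. It stood at -19.5 in crz1 cnb1 and -21.1 in crz1, against -38.0 to -39.8 for replicates 2 and 3 at 0 h. The main fit has no term for replicate number.

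The paralogs RPL9A and RPL9B, which encode large-subunit protein uL6, had the smallest p of all pairs for a change in copy use in both strains, and the start of their coding sequences shows how alike the counted sequences are. The first 180 coding bases of each are printed 5′ to 3′ from the R64 genome of RefSeq, with bases that differ between the copies in capitals (RPL9A lies on the minus strand at chrVII:228150-228329 and RPL9B on the plus strand at chrXIV:499681-499860).
RPL9A: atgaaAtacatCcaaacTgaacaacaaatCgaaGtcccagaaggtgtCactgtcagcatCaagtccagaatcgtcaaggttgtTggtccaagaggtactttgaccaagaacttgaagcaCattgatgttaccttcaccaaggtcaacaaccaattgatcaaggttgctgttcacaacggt
RPL9B: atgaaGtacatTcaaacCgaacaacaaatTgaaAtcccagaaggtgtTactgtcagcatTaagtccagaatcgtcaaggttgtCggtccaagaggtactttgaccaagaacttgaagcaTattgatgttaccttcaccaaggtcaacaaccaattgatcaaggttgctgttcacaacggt
The copies differed at 9 of these 180 bases and at 36 of 576 coding bases in all. Their proteins were 97.9% identical.

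Upstream of the start codon the copies of a pair can differ in the letters they hold. The windows 320 to 221 bases before the start codon are shown for 2 pairs in which the A copy, and not the B copy, held the letters ACCCANNCA (N is any base) of the Rap1 motif within 500 bases before the start codon, on either strand. These 100 bases run 5′ to 3′ along each gene's own strand, and capitals mark the letters, which stand as their reverse complement when on the other strand. The windows are chrVII:228550-228649 (minus), chrXIV:499361-499460 (plus), chrXVI:404630-404729 (plus) and chrII:604188-604287 (plus), in the order printed.
RPL9A: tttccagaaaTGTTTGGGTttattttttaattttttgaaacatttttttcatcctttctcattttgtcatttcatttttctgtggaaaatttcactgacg
RPL9B: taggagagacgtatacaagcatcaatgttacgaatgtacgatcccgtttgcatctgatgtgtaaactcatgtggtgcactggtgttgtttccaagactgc
RPS9A: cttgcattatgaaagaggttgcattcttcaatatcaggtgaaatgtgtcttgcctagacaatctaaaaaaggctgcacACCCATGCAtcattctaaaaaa
RPS9B: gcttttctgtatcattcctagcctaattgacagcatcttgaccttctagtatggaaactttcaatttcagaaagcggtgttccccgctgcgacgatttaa
Over the group these letters were found before 54 of the 137 genes (39.4%), against 359 of 6000 promoters of the same length (5.98%). Both copies held them in 12 pairs, the A copy alone in 12, the B copy alone in 13 and neither in 22. The PAC letters GATGAG stood before 21.9% of the genes and 28.2% of all promoters, and the RRPE letters AAAAATTTT before 9.49% and 9.47%, searched in the same windows and on both strands. A match is a description of the letters and not of a bound site.

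An intron in the coding sequence was annotated in 89 of the 137 genes (65.0%), against 271 of 6002 genes (4.52%) in the genome. Of the 91 introns of the group, 68 (74.7%) began with GTATGT and 14 (15.4%) with GTACGT, a form that began 26 of 281 introns in the genome (9.25%). Copies of one pair can differ here, and the first 30 intron bases of 2 such pairs are shown, with the splice site letters in capitals. These pairs are shown because RPS14B and RPL22B, and not RPS14A or RPL22A, are named below among genes called in a test.
RPS14A: GTATGTttaatcacatagtgaacattttta
RPS14B: GTACGTgaaaggggtgatatcctgtttaaa
RPL22A: GTATGAtactttaaaaggaatccacgcccg
RPL22B: GTACGTtaattttcgttcctatgtcacaat

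Coding sequences of the copies were 68.2 to 99.4% identical (median 93.2%), and 21 of the 59 pairs encode identical proteins. The share of each gene's 50-base stretches that occur nowhere else in the genome had a median of 96.5%. It was under 50% for 16 genes and at least 90% for 85. How reads that map to both copies were treated is not given in the sources used here, so levels of the least distinct genes (RPL1A and RPL1B, RPS6A and RPS6B, RPL41A and RPL41B among them) are uncertain. No coding sequence of the group overlaps another RefSeq gene, but 1078 of the 7126 genes counted have no RefSeq position and their overlap with the group was not checked.

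Ribosomal protein genes were among the most abundant messages in every group. On the TPM scale, which corrects for transcript length and library size, the median gene of the group averaged 1861 TPM over all libraries, with 1858 TPM for the large and 2070 TPM for the small subunit, against 24.7 TPM for all 6737 genes with a value. The group supplied 67 of the 100 and 118 of the 200 genes of highest mean TPM. RPS26A (7450 TPM), RPS15 (7176 TPM) and RPS20 (6220 TPM), all of the small subunit, had the highest levels, and RPL18B (235 TPM), RPS9A (209 TPM) and RPL15B (68.5 TPM) the lowest.

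Copies of one pair differed widely in level. The A copy was the more abundant in 35 pairs and the B copy in 24, with a median of 1.71-fold between copies and a range of 1.02- to 58.1-fold. RPL15A averaged 3980 TPM and RPL15B 68.5 TPM, the widest gap of the group. RPS14A averaged 4550 TPM and RPS14B 420 TPM, and RPS9B averaged 2081 TPM and RPS9A 209 TPM. In 26 pairs the copies lay within 1.5-fold of each other.

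The share of all counts held by the 137 genes was lowest at 72 h in both strains. In crz1 cnb1 it was 19.1, 20.6 and 20.6% at 0 h, 17.1, 17.2 and 17.8% at 12 h, 16.9, 21.3 and 18.8% at 48 h and 14.2, 14.6 and 13.8% at 72 h. In crz1 it was 20.9, 19.4 and 20.2% at 0 h, 17.6, 18.2 and 18.1% at 12 h, 15.9, 24.4 and 22.6% at 48 h and 16.0, 14.6 and 13.7% at 72 h. The libraries at 12 h and those at 72 h lay below all of those at 0 h in each strain, and those at 48 h were the most spread. The count ratio of large to small subunit stayed between 1.26 and 1.42 in all 24 libraries (median 1.34), and the same ratio in TPM between 1.23 and 1.32.

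**Figure D1:**
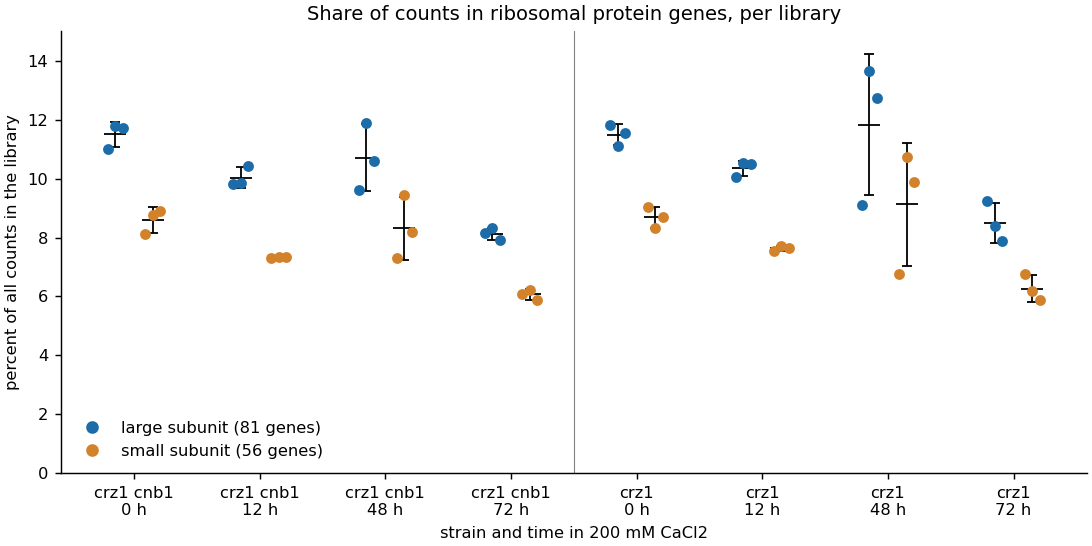
Share of all counts in each library that fell on ribosomal protein genes of the large and the small subunit, in percent, for crz1 cnb1 and crz1 at 0, 12, 48 and 72 h. Points are libraries; both subunits are lowest at 72 h, and 1 crz1 library at 48 h lies below the other 2.

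Few ribosomal protein genes passed the test after 12 h of CaCl2, although the group's share of all counts was lower than at 0 h. In crz1 cnb1, 2 of the 137 were higher and 1 lower than at 0 h by edgeR's quasi-likelihood test (adjusted p under 0.05), where 12.9% of all genes tested were higher and 7.67% lower. In crz1, 8 were higher and 1 lower, where 17.6% of all genes were higher and 14.4% lower. The median log2 fold change of the group was -0.07 in crz1 cnb1 and 0.00 in crz1, and -0.00 over all genes in both. With limma on log2(TPM + 1) the splits were 2 higher and 19 lower in crz1 cnb1, and 7 higher and 25 lower in crz1, where the median of all genes was itself -0.16. The share of all genes called on that scale is not given here.

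RPL3, a large-subunit protein that reaches the peptidyl transferase centre, and RPP0, the base of the stalk that recruits translation factors, were the genes higher at 12 h in both strains. RPL3 had 2567, 2744 and 2814 CPM at 12 h in crz1 cnb1, against 1638, 1754 and 1646 CPM at 0 h (log2 fold change 0.69 ± 0.09 SE, edgeR adjusted p = 2.36e-05). In crz1 it had 2744, 2912 and 2880 CPM at 12 h, against 1800, 1849 and 1775 CPM at 0 h (0.65 ± 0.09, adjusted p = 1.89e-05). Neither strain's libraries overlapped between the times.

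RPP0 had 3382, 3600 and 4536 CPM at 12 h in crz1 cnb1, against 2064, 2190 and 2395 CPM at 0 h (log2 fold change 0.79 ± 0.15, adjusted p = 0.000629). In crz1 it had 3710, 4503 and 5220 CPM at 12 h, against 1963, 2306 and 2441 CPM at 0 h (1.001 ± 0.15, adjusted p = 2.72e-05). Again every library at 12 h was above every library at 0 h. Both genes are single-copy, so no partner shares their reads. The other genes called higher in crz1 included RPS22B, RPL9B, RPS14B, RPS9A and RPL7B, and the lower ones were RPL18B in crz1 and RPL22B in crz1 cnb1 (-0.60 ± 0.21, adjusted p = 0.0432, held in 8 of 14 alternatives).

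After 48 h the counts of genes called moved with single libraries and with the scale. In crz1 cnb1, 5 genes were higher and 5 lower than at 0 h (14.3% and 9.54% of all genes), with a median log2 fold change of -0.02, against 0.06 over all genes. In crz1, 29 were higher and 1 lower (19.8% and 13.7% of all genes), with a median of 0.31, against 0.07 over all genes, and 127 of 137 values were positive. The 29 genes were a share of the group close to that of all genes. Without crz1 48 h replicate 1, 114 genes were higher and 1 lower (median 0.54), and without replicate 2 or replicate 3 the count was 14 in all. Without crz1 0 h replicate 2 it was 15 and without 0 h replicate 3 it was 18. The shares of all genes are from the fit of all 24 libraries, and none is given for these reduced fits. A fit of only the libraries compared called 16 genes in crz1 cnb1 and 5 in crz1, so the order of the strains turned. On the TPM scale the direction of the crz1 group turned, with 9 higher and 20 lower and a median of -0.07, where the median of all genes was -0.25.

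Of the 29 genes higher in crz1 at 48 h, 18 were of the large and 11 of the small subunit, and 4 of the 5 stalk genes were among them. RPP1A, an acidic stalk protein, had 934, 2214 and 2375 CPM at 48 h, against 920, 833 and 932 CPM at 0 h (1.04 ± 0.25, adjusted p = 0.00319). RPP2A had 1030, 2912 and 3457 CPM at 48 h, against 1490, 1173 and 1283 CPM at 0 h (0.91 ± 0.28, adjusted p = 0.0160). RPL22B had 221, 404 and 380 CPM at 48 h, against 204, 145 and 145 CPM at 0 h (1.02 ± 0.21, adjusted p = 0.000825). In the stalk genes replicate 1 at 48 h lay within or close to the range of the 0 h libraries and the other 2 lay above it, and the RPP2A call was lost on the TPM scale and without 48 h replicate 2 or 3. Without replicate 1 the log2 fold changes were 1.36 for RPP1A, 1.28 for RPP2A and 1.25 for RPL22B.

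RPL3, RPL9B, RPS9A and RPS22B were higher at 48 h in both strains. RPS9A, the less abundant copy of small-subunit protein uS4, had 232, 212 and 228 CPM at 48 h in crz1 cnb1, against 130, 99.3 and 107 CPM at 0 h (1.002 ± 0.17, adjusted p = 0.000211). In crz1 it had 190, 201 and 208 CPM at 48 h, against 143, 85.5 and 87.5 CPM at 0 h (0.92 ± 0.17, adjusted p = 0.000287). The groups did not overlap in either strain. Without crz1 48 h replicate 1 the crz1 change of RPS9A was 0.96 (adjusted p = 0.000334), and RPL3, RPL9B and RPS22B also remained called. On the TPM scale RPL3 was not called in either strain at 48 h.

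After 72 h a fall covered much of the group in both strains. In crz1 cnb1, 71 genes were lower and 2 higher than at 0 h, where 15.7% of all genes were lower and 20.1% higher, and 132 of 137 values were negative. In crz1, 39 were lower and 5 higher, where 19.8% of all genes were lower and 22.6% higher. The median log2 fold change of the group was -0.46 in crz1 cnb1, against 0.01 over all genes, and -0.32 in crz1, against -0.03 over all genes. With limma on log2(TPM + 1) the splits were 87 lower and 4 higher in crz1 cnb1, and 93 lower and 4 higher in crz1. For these splits, too, no share of all genes is given. Leaving out 1 library gave 36 to 71 calls in crz1 cnb1, against 73 in all, with 42 and 36 without 0 h replicates 2 and 3 and 40 and 39 without 72 h replicates 1 and 2. In crz1 it gave 21 to 42, against 44 in all, with 21 and 27 without 0 h replicates 1 and 3 and 25 and 23 without 72 h replicates 2 and 3.

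Genes of both subunits were among those that fell. In crz1 cnb1, 40 of 81 large-subunit and 31 of 56 small-subunit genes were lower, with medians of -0.46 and -0.47, and in crz1, 22 and 17 were lower, with medians of -0.30 and -0.32. Genes with and without an intron both had a median of -0.46 in crz1 cnb1, and the more and the less abundant copies of pairs had medians of -0.48 and -0.42. The 31 genes lower in both strains were 43.7% of the 71 called in crz1 cnb1 and 79.5% of the 39 called in crz1. The overlap between strains over all genes is not given here, so these shares have no background. No gene was called in opposite directions.

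**Figure D2:**
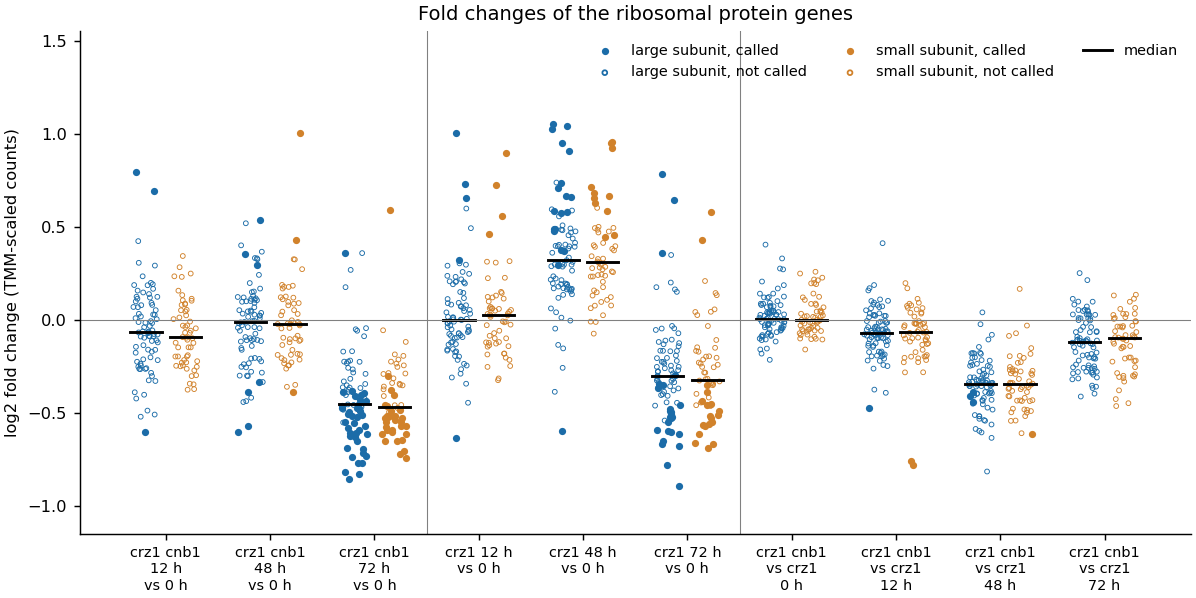
Log2 fold changes of the 137 genes in 10 comparisons, 6 of CaCl2 times against 0 h and 4 between strains, by edgeR. Each point is a gene; the points at 72 h lie mostly below 0 in both strains, with a median of -0.46 in crz1 cnb1 and -0.32 in crz1.

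RPL9A fell in both strains at 72 h. It had 910, 910 and 895 CPM at 72 h in crz1 cnb1, against 1469, 1768 and 1688 CPM at 0 h (-0.86 ± 0.18, adjusted p = 0.00115), and 1017, 885 and 759 CPM at 72 h in crz1, against 1714, 1570 and 1662 CPM at 0 h (-0.89 ± 0.18, adjusted p = 0.000615). RPL15A, the abundant copy of large-subunit protein eL15, had 2260, 2184 and 2120 CPM at 72 h in crz1 cnb1, against 4267, 3854 and 3444 CPM at 0 h (-0.82 ± 0.17, adjusted p = 0.000911). No library at 72 h reached the lowest at 0 h in these comparisons, which the rule for naming these genes required. In crz1 the RPL15A change was -0.55, with adjusted p = 0.0124, and without 72 h replicate 3 it was not called.

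Other genes named by the rule for the 72 h falls in crz1 cnb1 were RPL34B (-0.83 ± 0.19), RPL41A (-0.77 ± 0.22) and RPL16A (-0.77 ± 0.17), all of the large subunit. In crz1 they were RPL18B (-0.78 ± 0.13), RPS6A (-0.69 ± 0.16), RPL11A (-0.68 ± 0.19) and RPL31A (-0.67 ± 0.22). RPL18B also had -0.70 ± 0.13 in crz1 cnb1. Reads of RPL41A, RPS6A and RPL11A are not well told from those of their partners. Of the most abundant genes, RPS26A was not called (-0.21 in crz1 cnb1 and -0.28 in crz1), nor was RPS15 (-0.24 and 0.02), while RPS20 had -0.46 ± 0.14 in crz1 cnb1 (adjusted p = 0.0119) and -0.45 ± 0.14 in crz1 (adjusted p = 0.0106).

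RPL3 and RPS9A were higher at 72 h in both strains. RPL3 had 2169, 2145 and 2135 CPM at 72 h in crz1 cnb1, against 1638, 1754 and 1646 CPM at 0 h (0.36 ± 0.09, adjusted p = 0.005). In crz1 the change was also 0.36 ± 0.09 (adjusted p = 0.00373), and on the TPM scale that call was lost. RPS9A had 166, 165 and 174 CPM at 72 h in crz1 cnb1, against 130, 99.3 and 107 CPM at 0 h (0.59 ± 0.17, adjusted p = 0.00923), a call lost without 0 h replicate 2. In crz1 the RPS9A change was 0.58 ± 0.17 (adjusted p = 0.00820) and was lost without 0 h replicate 2 or 3.

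**Figure D3:**
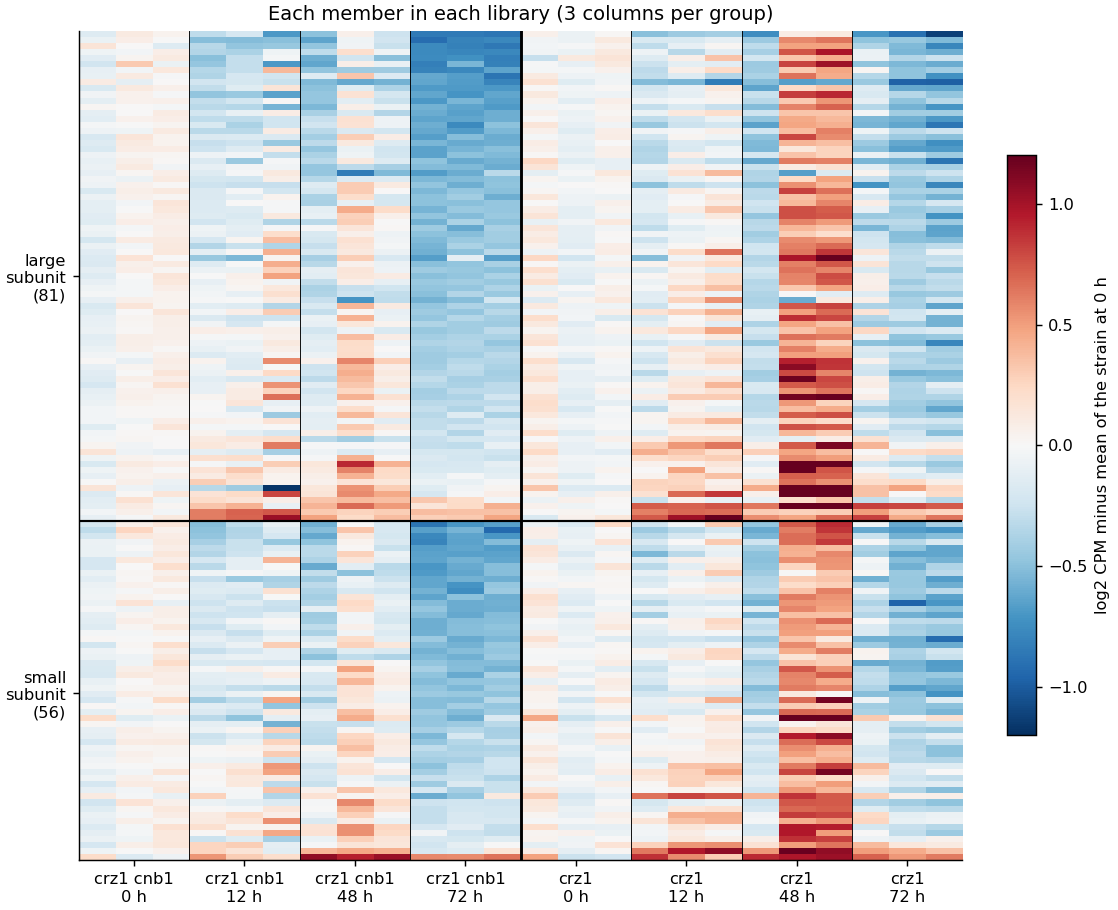
Levels of the 137 genes in the 24 libraries, as log2 CPM minus the mean of the same strain at 0 h, with large-subunit genes and small-subunit genes in separate blocks and rows ordered by the 72 h change in crz1 cnb1. Most values in the 72 h columns are below 0, and the crz1 columns at 48 h differ among themselves, with replicate 1 apart from the other 2.

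Between the strains few genes of the group were called, and at 12 and 48 h the share called lower was close to that of all genes. At 0 h none of the 137 was called by edgeR, DESeq2 or limma, and 0.0164% of all genes were called. None of the 137 had an unadjusted edgeR p under 0.05, where 1.63% of all genes did. At 12 h, 3 were lower in crz1 cnb1 than in crz1 (2.09% of all genes lower), which were RPS22B (-0.76, adjusted p = 0.00829), RPS14B (-0.78, adjusted p = 0.0189) and RPL7B (-0.47, adjusted p = 0.0299). RPS22B had 531, 495 and 409 CPM at 12 h in crz1 cnb1, against 673, 842 and 911 CPM in crz1. RPS14B had 234, 190 and 151 CPM in crz1 cnb1, against 310, 346 and 333 CPM in crz1, and neither gene's groups overlapped. A fit of only the libraries compared called none of the 3, and leaving out 12 h replicate 3 of either strain also left none called.

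At 48 h, 4 genes were lower in crz1 cnb1 than in crz1 (RPL8A -0.44, RPL5 -0.39, RPL7B -0.41 and RPS14B -0.62), where 3.05% of all genes were lower. The median of the group was -0.35. Without crz1 48 h replicate 1, 126 genes were lower (median -0.57), RPL8A among them with -0.57 and RPS14B with -0.73. Without any other library of these groups none was called. No share of all genes is given for the fits without a library. On the TPM scale none was called and the group median was -0.02, where that of all genes was 0.26. At 72 h edgeR called none of the 137, where 6.16% of all genes were called. At 72 h 13 of the 137 had an unadjusted edgeR p under 0.05, where 21.3% of all genes did. At 48 h 56 of the 137 did, all lower, where 23.5% of all genes did. At 72 h DESeq2 called 5 and limma on TPM none, and the group median was -0.11 (0.01 on the TPM scale).

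Whether the change from 0 h differed between strains was tested directly. EdgeR called none of the 137 at 12, 48 or 72 h, where 0.0493, 0.427 and 0.591% of all genes were called. At these times 6, 30 and 5 of the 137 had an unadjusted edgeR p under 0.05, where 9.56, 15.2 and 13.9% of all genes did. DESeq2 called 1, 0 and 0, and limma on TPM called none. Without crz1 48 h replicate 1, the test at 48 h called 83 of the 137, with no share of all genes given for that fit. The counts of genes lower at 72 h, 71 in crz1 cnb1 and 39 in crz1 by edgeR, were 87 and 93 with limma on log2(TPM + 1). Which strain had more thus depended on the scale and test used, which changed together.

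In some pairs the copies changed unequally. The log2 ratio of A to B counts was compared for 61 pairs of A and B names, 59 of the group and 2 others, with limma, and counts below lead with an adjustment as over all 6089 genes tested. In crz1 cnb1, 4 of the 59 pairs passed that adjustment for the 3 CaCl2 times together against 0 h, and 26 passed the one over 61 pairs (44.3% of the 61). In crz1, 8 and 22 passed (36.1% of the 61), and 11 and 21 without crz1 48 h replicate 1. As 59 of the 61 pairs belong to the group, shares of the 61 are nearly its own and give no background. In the 15 pairs called in both strains over 61 pairs the direction was the same. Across the 59 pairs the changes in the strains had a Pearson r of 0.789, and 51 pairs had the same sign. The 2 comparisons share no library but may not be independent. Same-numbered libraries of the strains were correlated across genes, with 0.56 to 0.77 at 0 h and 0.17 to 0.50 at 12 h.

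The RPL9 pair had the smallest p in both strains. RPL9A supplied 78.0, 78.7 and 78.8% of the summed TPM of RPL9A and RPL9B at 0 h in crz1 cnb1, 70.1, 70.3 and 70.7% at 12 h, 66.2, 70.5 and 68.3% at 48 h and 64.8, 63.4 and 59.7% at 72 h. In crz1 the share was 80.0, 79.8 and 80.0% at 0 h, 63.0, 64.4 and 64.05% at 12 h, 60.5, 64.7 and 64.5% at 48 h and 58.3, 55.0 and 52.5% at 72 h. No CaCl2 library reached a 0 h library in either strain. The log2 ratio changed by -0.83 ± 0.08 in crz1 cnb1 and by -1.36 ± 0.08 in crz1 (adjusted p = 6.43e-07 and 2.22e-11, limma, as over all genes), and by -1.33 ± 0.07 in crz1 without 48 h replicate 1.

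In crz1 both copies of RPL9 were called at 72 h, in opposite directions. RPL9B had 729, 722 and 687 CPM at 72 h in crz1, against 428, 398 and 416 CPM at 0 h (0.78 ± 0.15, edgeR adjusted p = 0.000226), and 495, 525 and 603 CPM at 72 h in crz1 cnb1, against 414, 480 and 455 CPM at 0 h (0.27 ± 0.14, adjusted p = 0.153). Every crz1 library at 72 h was above every one at 0 h, which the rule for naming RPL9B there required. Every crz1 cnb1 library at 72 h was also above every one at 0 h, but the smaller change in crz1 cnb1 was not called on counts. RPL9 was the 1 pair in which both copies were called in opposite directions in crz1 at 72 h, and RPS9 the 1 such pair in crz1 cnb1.

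The other pairs that passed the adjustment over all genes in crz1 cnb1 were RPS19 (0.36 ± 0.06), RPL15 (-0.72 ± 0.12) and RPL34 (0.44 ± 0.08). In crz1 they included RPS22 (-0.86 ± 0.12), RPL40 (0.30 ± 0.05), RPL8 (0.46 ± 0.08), RPS6 (-0.31 ± 0.06) and RPL13 (-0.31 ± 0.06). The RPS6 copies share most of their sequence, so their ratio is uncertain. RPS22 A to B log2 ratios lay between 1.33 and 1.88 in the CaCl2 libraries of crz1, against 2.31, 2.40 and 2.56 at 0 h, with no overlap.

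**Figure D4:**
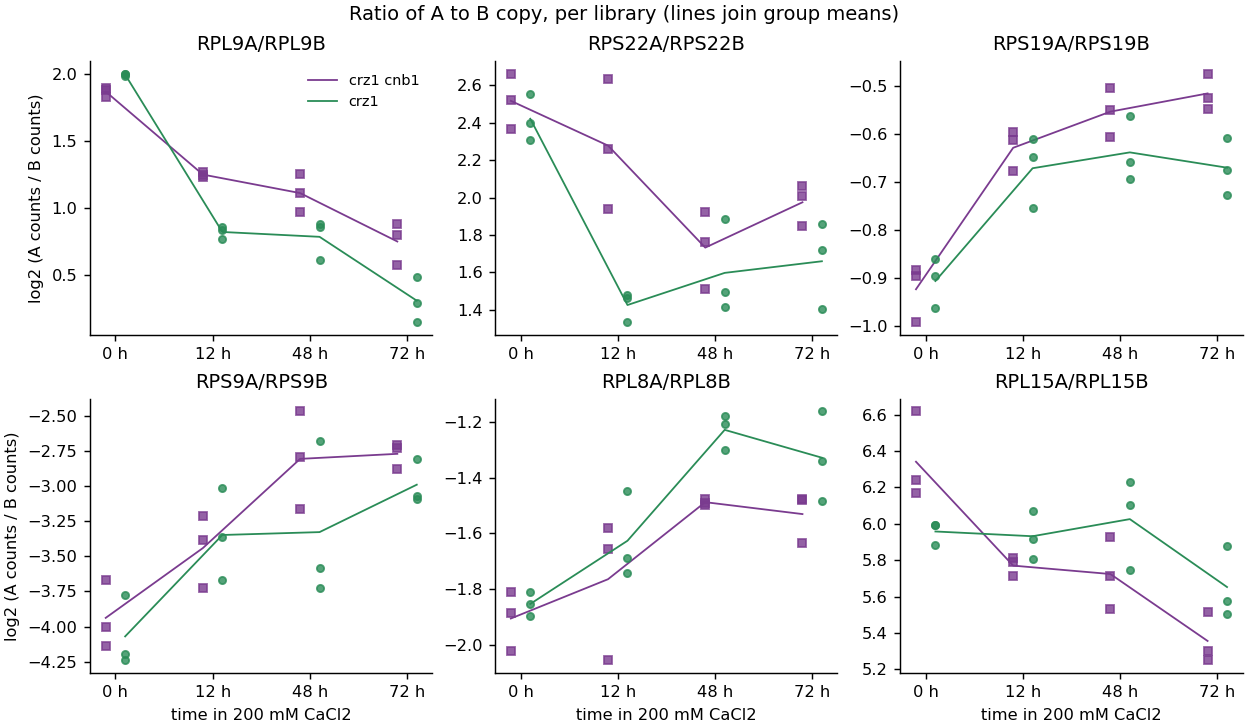
Log2 ratio of A to B counts in each library for RPL9, RPS22, RPS19, RPS9, RPL8 and RPL15, for crz1 cnb1 and crz1 at 0, 12, 48 and 72 h. Points are libraries; for RPL9 all CaCl2 libraries lie below all 0 h libraries in both strains.

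RPS9 did not pass the adjustment over all genes in either strain (0.93 ± 0.19, adjusted p = 0.0703 in crz1 cnb1 and 0.85 ± 0.19, adjusted p = 0.115 in crz1). Over 61 pairs its adjusted p was 0.000704 in crz1 cnb1 and 0.00115 in crz1. Without crz1 48 h replicate 1 it passed over all genes in crz1 (0.74 ± 0.15, adjusted p = 0.0363). RPS9A supplied a mean of 12.7% of the summed TPM of the RPS9 pair at 72 h in crz1 cnb1, against 6.11% at 0 h.

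Comparing the strains over all times, 1 pair passed the adjustment over all genes, RPL9 (0.27 ± 0.05, adjusted p = 0.0419). The RPL9 value was 0.25 ± 0.04 (adjusted p = 0.0353) without crz1 48 h replicate 1, and 2 pairs then passed. The RPL9 difference was not the same at all times. At 0 h the log2 ratio averaged 1.87 ± 0.03 in crz1 cnb1, against 1.99 ± 0.01 in crz1 (SD, n = 3 each), with no overlap, so the A copy held less in crz1 cnb1. The group means at 12, 48 and 72 h were 1.25, 1.11 and 0.75 in crz1 cnb1, against 0.82, 0.78 and 0.31 in crz1. Over 61 pairs those also called included RPS22 (0.35), RPL8 (-0.16) and RPS26 (-0.16), where 8.2% of the 61 were called. The test of whether the CaCl2 change differed between strains was chosen after the data were seen. It gave 0.53 ± 0.11 for RPL9 (adjusted p = 0.00351 over 61 pairs and 0.350 as over all genes) and -0.64 ± 0.16 for RPL15 (0.0221 and 1). It gave 0.50 ± 0.10 and -0.68 ± 0.15 without crz1 48 h replicate 1 (0.00309 and 0.00510 over 61 pairs, 0.308 and 0.510 as over all genes). The RPL15 difference includes a gap at 0 h, where the log2 ratio averaged 6.34 ± 0.24 in crz1 cnb1 and 5.96 ± 0.06 in crz1 (SD).

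**Figure D5:**
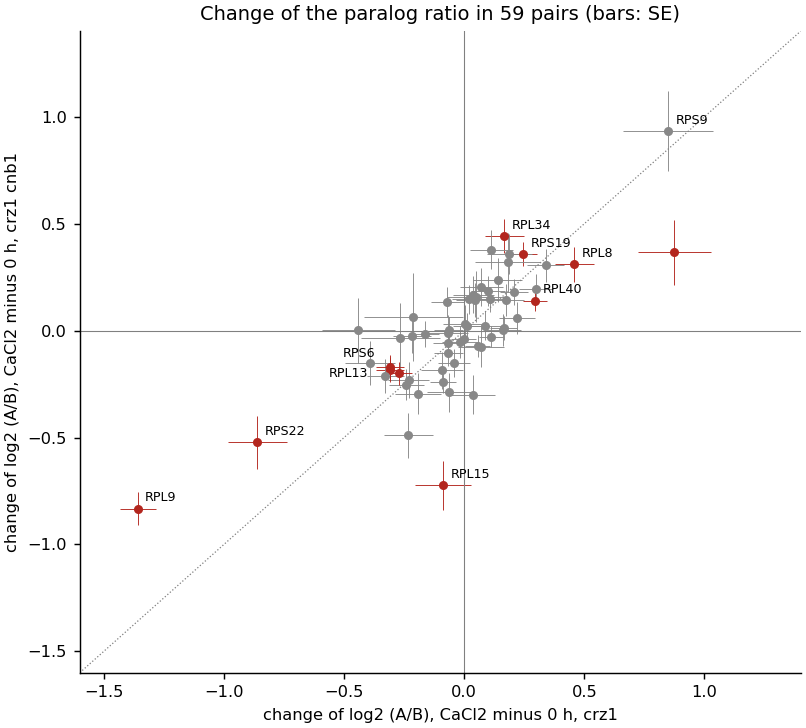
Change in the log2 A to B ratio, CaCl2 against 0 h, in crz1 cnb1 (vertical axis) and in crz1 (horizontal axis) for the 59 pairs, with standard errors as bars and equal change as the dotted line. Red marks pairs that passed the adjustment over all genes in either strain; 51 of 59 points have the same sign on both axes, and RPL9 lies at -1.36 in crz1 and -0.83 in crz1 cnb1.

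Genes that regulate, assemble or work with ribosomal proteins were counted from lists of their own. The counts are for 72 h against 0 h, where in crz1 cnb1 20.1% of all genes had risen and 15.7% had fallen, and in crz1 22.6% and 19.8%. Of 15 regulators, 9 were higher and none lower in each strain, among them DOT6, a repressor of ribosome biogenesis genes (1.30 ± 0.21 in crz1 cnb1 and 1.35 ± 0.22 in crz1), the TOR pathway kinase TOR2 (0.89 ± 0.19 and 0.88 ± 0.19) and SCH9, a kinase downstream of TOR (0.68 ± 0.17 and 1.22 ± 0.17). RAP1 had 0.67 ± 0.17 and 0.63 ± 0.17 and IFH1 1.19 ± 0.31 and 0.99 ± 0.31, while FHL1 was not called in either strain (0.47 and 0.21). The list medians were 0.53 in crz1 cnb1 and 0.63 in crz1, against 0.01 and -0.03 over all genes.

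Of 10 dedicated chaperones tested, 1 was higher and 3 lower in crz1 cnb1, and 2 higher and 5 lower in crz1 (15.7% and 19.8% of all genes were lower), and so short a list is not set apart by these counts. TSR4, a chaperone of Rps2, had -0.48 (not called on the TPM scale) and -0.62, and BCP1, a chaperone of Rpl23, had -0.59 and -0.66 in crz1 cnb1 and crz1. NAP1, of the same list, was higher in both, with 0.89 and 0.72. Of 26 translation factors, 3 were higher and 9 lower in crz1 cnb1, and 3 higher and 6 lower in crz1, where 20.1% and 22.6% of all genes were higher and 15.7% and 19.8% lower. Among those higher were CAM1 (1.03 in crz1 cnb1 and 0.92 in crz1) and, in crz1, PAB1 (0.88). HYP2, the translation factor eIF5A, had -0.91 ± 0.16 in crz1 cnb1 and -0.02 in crz1, and it was lower in crz1 cnb1 than in crz1 at 72 h (-0.80 ± 0.16, adjusted p = 0.00534). RLI1, an ATPase of ribosome recycling, was also lower there (-0.70 ± 0.17, adjusted p = 0.0178), a call lost on the TPM scale and without 72 h replicate 1 or 2 of crz1 cnb1 or replicate 1 or 3 of crz1.

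The 66 mitochondrial ribosomal protein genes, which make a separate ribosome inside mitochondria, were counted the same way at 72 h. In crz1 cnb1, 9 were higher and none lower (20.1% and 15.7% of all genes), and in crz1, 4 were higher and 54 lower (22.6% and 19.8% of all genes). The list median was -0.02 in crz1 cnb1 and -0.65 in crz1, and 49 were higher in crz1 cnb1 than in crz1, with none lower, where 6.16% of all genes were called in either direction. MRPS17 had -1.07 ± 0.14 in crz1 and -0.13 in crz1 cnb1, and it was higher in crz1 cnb1 than in crz1 (0.82 ± 0.14, adjusted p = 0.00160). Of 72 nucleolar biogenesis genes, 4 were higher and 10 lower in crz1 cnb1, and 9 higher and 23 lower in crz1. In crz1 cnb1 both shares were at or below those of all genes (20.1% higher and 15.7% lower), and in crz1 the share lower was above that of all genes (19.8%).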

How the data were processed

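Per the submitters' processing notes, the authors obtained the deposited raw counts with featureCounts on build R64, and DESeq2 is named too. A deposited table of the authors' TPM values covers those libraries as well. What the sources used here do not give are the aligner, all versions, strandedness and the treatment of multi-mapped reads. The quasi-likelihood test of edgeR 4.0.16 (R 4.3.3) was applied to counts (TMM scaling, filterByExpr by group, robust quasi-likelihood fit of all 24 libraries with 1 coefficient per group). P-values were adjusted by Benjamini-Hochberg over 6089 genes and called under 0.05. CPM are TMM-scaled. Ratios are log2((A + 0.5)/(B + 0.5)), tested with limma 3.58.1. Values after ± are standard errors in log2, unless marked SD. The 72 h genes named are those the rule picked by size among called genes whose libraries do not overlap; others were named by list or after their values were seen, and some are not reported here. Members and lists were chosen with earlier results of these data known. The fits were tested on simulated data. Alternatives were DESeq2 1.42.0, limma on log2(TPM + 1) and log2(TPM + 0.1), RLE size factors, no filter, replicate blocks, only the libraries compared, and each library left out. Replicate numbers were taken to pair libraries where every same-numbered correlation across genes exceeded 0.1, which held for crz1 at 12 h (lowest 0.114) and for the strains at 0 h (0.56) and 12 h (0.169). Sequences and positions are from RefSeq R64. Plots were made in matplotlib 3.10.9 (Python 3.11.15).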

Additional observations from a re-analysis of the deposited data

Results flagged for a closer look

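The change of the RPL9A to RPL9B log2 ratio in CaCl2 against 0 h was -0.83 in crz1 cnb1 and -1.36 in crz1, a difference of 0.53 that passed the test of the difference over 61 pairs and not as over all genes. The change of the RPL15A to RPL15B log2 ratio was -0.72 in crz1 cnb1 and -0.09 in crz1, a difference of -0.64, also past the adjustment over 61 pairs alone. This difference includes a gap at 0 h, where the ratio averaged 6.34 ± 0.24 in crz1 cnb1 and 5.96 ± 0.06 in crz1 (SD). The means at 12, 48 and 72 h were 5.77, 5.72 and 5.36 in crz1 cnb1, against 5.93, 6.03 and 5.65 in crz1.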

How the results depend on the processing

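On the TPM scale the group median turned to -0.07 for crz1 at 48 h (0.31 on counts) and to 0.01 between strains at 72 h (-0.11). Counts of the 137 genes called moved by over 1.5 times as follows. At 12 h against 0 h in crz1 cnb1 (3), DESeq2 gave 7, limma on TPM 21 with both pseudocounts, the compared libraries alone 9 and the replicate block 5. At 48 h in crz1 cnb1 (10), TPM gave 22 and the compared libraries 16. At 72 h the compared libraries gave 123 (73) in crz1 cnb1, and in crz1 (44) 73, with TPM 97. At 12 h in crz1 (9), TPM gave 32 and the compared libraries 14, and at 48 h (30) the compared libraries gave 5. Between strains, the compared libraries gave 0 at 12 h (3) and 0 at 48 h (4), where DESeq2 gave 18, TPM 0, no filter 1 and the replicate block 14. At 72 h between strains (0), DESeq2 gave 5 and the compared libraries 3. For the difference in change, DESeq2 gave 1 at 12 h and the compared libraries 1 at 72 h (0 each). Adjusted as over all genes, ratio calls were 4, 8 and 1 (26, 22 and 5). Leaving out 1 library gave 2 to 3, 4 to 6 and 36 to 71 in crz1 cnb1 at 12, 48 and 72 h, 6 to 9, 14 to 115 and 21 to 42 in crz1, 0 to 0, 0 to 3, 0 to 126 and 0 to 1 between strains at 0, 12, 48 and 72 h, 0 to 0, 0 to 83 and 0 to 0 for the difference in change, and 18 to 27, 17 to 22 and 3 to 7 for the ratios. The cause was not tested. Where numbers paired libraries, the replicate block gave 12 (9), 0 (0) and 4 (3) for crz1 at 12 h and the strains at 0 and 12 h. Of 1313 alternative values of 95 single-gene results, 1257 kept side and direction, 40 lost the call and 16 gained it. Depth and 3 libraries per group limit changes in low genes, and reads shared by near-identical copies limit the ratios.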
